A study of Caenorhabditis elegans with 10 samples.

Results

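Ribosome footprints of Caenorhabditis elegans adults grown at 20°C are described here as the state from which the animals were later cooled. A gene belonged to the set when its coding sequence had at least 1 footprint count in the 20°C column, which held for 10543 of the 19985 genes of the table. Each gene was read from the transcript with the highest value at 20°C. The animals were wild-type N2, the laboratory reference strain, raised at 20°C as a synchronized population from the first larval stage until day 1 of adulthood and collected whole. No mutation, transgene or drug was part of the design, and the other groups of the series, moved to 10°C and then 4°C, are not compared here. The 2 libraries of the 20°C group were deposited as 1 pooled value per transcript, so no value below carries a replicate error, and each interval covers counting error only.

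Ribosome profiling sequences the short stretches of mRNA that a ribosome shields from nuclease digestion, here fragments of 28 to 30 nt from single ribosomes. The density of footprints on a coding sequence reflects how much mRNA there is and how heavily ribosomes load it. FPKM (footprints per 1000 nt of coding sequence, scaled to 1000000 counts) gives this density per length, so it compares the number of protein chains made from short and long genes, provided that ribosomes move at similar speeds. The plain count weighs a gene by the ribosomes on the transcript it was read from. A young adult hermaphrodite is largely a gonad packed with growing oocytes, fed by an intestine that secretes yolk, inside a muscle layer and a cuticle. In bulk tissue of this kind fewer cells of a type and less mRNA per cell cannot be told apart.

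Whole footprint counts were recovered from the deposited FPKM, with 425405 counts over the genes, each read from 1 transcript. On a coding sequence of 1000 nt 1 count was worth 1.48 FPKM. Of the genes, 3642 had at least 10 counts, 601 at least 100 and 58 at least 1000, while 2731 had a single count and 9442 were listed at 0. A floor of 3 counts stood at 4.44 FPKM for a 1000 nt coding sequence. The median over genes with a count was 6.73 FPKM, so a typical gene of the set was near this floor. In contrast, 912 genes reached 100 FPKM and 151 reached 1000 FPKM.

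A small number of genes held most of the footprints. The summed FPKM reached 25% with 40 genes, 50% with 134 genes, 75% with 529 genes and 90% with 1795 genes. The 10 highest genes held 10.0% of the summed FPKM, the 50 highest 29.3% and the 1000 highest 83.7%. By counts, 50% was reached with 121 genes, and the 50 highest genes held 36.7%. The lists of the 50 highest genes by FPKM and by count shared 25 genes, which is 50% of each list. Genes read from short coding sequences filled the top ranks by density. The median coding length was 460.5 nt over ranks 1 to 50, 562.5 nt over ranks 51 to 300, 664.5 nt over ranks 301 to 1000, 858 nt over ranks 1001 to 3000 and 1161 nt below that.

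**Figure D1:**
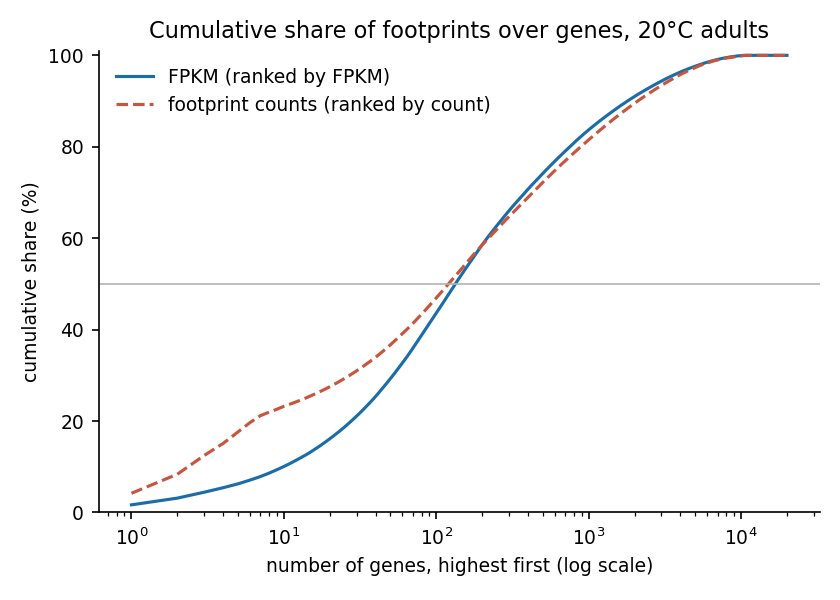
Cumulative share (%) of summed FPKM (solid line) and of footprint counts (dashed line) against the number of genes taken from the highest down, on a log axis, in the pooled 20°C column. The grey line marks 50%, which the FPKM curve crosses at 134 genes and the count curve at 121 genes, and the count curve starts higher as its first 5 genes were the long vitellogenin genes.

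The highest gene was rla-1, an acidic protein of the stalk of the large ribosomal subunit, at 11935 FPKM (95% counting interval 11489.5 to 12393) from 2709 counts. It was followed by rps-29, a small-subunit protein with a coding sequence of 171 nt on chromosome III (794300 to 795031, WBcel235), at 10561 FPKM. The third was eef-1A.1 (chromosome III, 6970026 to 6971712), the elongation factor that brings aminoacyl-tRNAs to the ribosome, at 9295 FPKM from 8741 counts. Of the 30 highest genes 20 encoded cytosolic ribosomal proteins. The other 10 included the vitellogenins vit-3, vit-4, vit-5 and vit-6, the nucleoside diphosphate kinase ndk-1 at 5918 FPKM, the cyclophilin cyn-7 at 4776 FPKM, the small heat shock protein sip-1 at 4351 FPKM and the fatty acid and retinol binding protein far-2 at 4352 FPKM. Y82E9BR.3, on chromosome III at 1419196 to 1419869, had rank 4 at 7119 FPKM. The intervals of far-2, sip-1 and rpl-11.1 (4351 FPKM) overlapped almost entirely, so their order was not resolved at this depth.

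By count the order was different. The 5 first genes were vit-4 with 17825 counts (4.19% of all counts), vit-3 with 17736 (4.17%), vit-5 with 17450 (4.10%), vit-6 with 11281 (2.65%) and vit-2 with 10607 (2.49%). Next were eef-1A.1 with 2.05%, vit-1 with 1.495%, the constitutive cytosolic HSP70 hsp-1 with 0.779%, eef-2, which moves the ribosome along the mRNA, with 0.641%, and rla-1 with 0.637%. The gene that led by density thus had rank 10 by count.

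Grouping genes by function put translation first on both scales. The 68 gene lists, gathered into classes with each gene counted once, covered 4519 genes, 72.3% of the summed FPKM and 71.9% of the counts. Translation held 34.8% of the summed FPKM and 20.97% of the counts. Mitochondrial energy supply held 4.26% of the summed FPKM, chromatin 4.07%, cuticle 3.62%, yolk 3.46%, protein folding 3.34% and protein degradation 3.18%. Measured in counts, yolk held 19.1% and chromatin 1.71%, whereas cuticle (3.70%), mitochondrial energy supply (3.63%), protein folding (3.90%) and protein degradation (3.45%) held similar shares on both scales. Oocyte and eggshell genes held 2.29% of the summed FPKM, cytoskeleton and muscle genes 2.49%, and immune and secreted proteins 2.56%. Sperm genes held 0.155% and neuronal genes 0.239%.

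**Figure D2:**
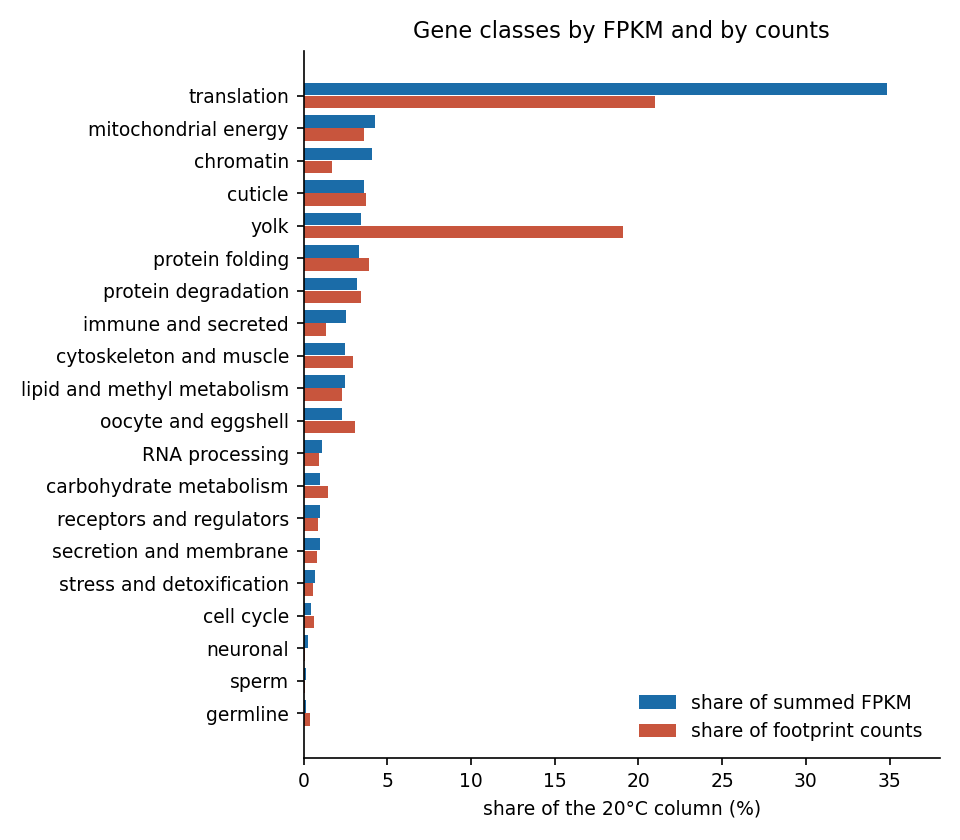
Share (%) of the 20°C column held by each gene class, as summed FPKM (blue bars) and as footprint counts (red bars). Translation led on both scales with 34.8% and 20.97%, and yolk held 3.46% of the FPKM and 19.1% of the counts, or 1.98% and 11.8% with vit-3, vit-4 and vit-5 counted once.

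Cytosolic ribosomal proteins were the largest family by density among the lists. Every ribosome carries 1 copy of most of these proteins, and their synthesis has to match that of rRNA. The 86 genes held 31.04% of the summed FPKM (95% counting interval 30.8 to 31.3) and 15.5% of the counts (Wilson interval 15.4 to 15.6). The large-subunit list of 54 genes held 18.1% of the FPKM and the small-subunit list of 32 genes held 12.97%, with medians of 2182 and 2630.3 FPKM. Together these genes filled 36 of the 50 and 65 of the 100 highest ranks by density, and 18 of the 50 highest ranks by count. Their median was 2363 FPKM, and 69 of the 86 genes lay within 2-fold of it. The 5 genes above that range were rla-1, rps-29, rpl-38 (6046 FPKM), rpl-18 (5047 FPKM) and rps-28 (4859 FPKM).

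A group of 7 genes that symbols placed in the ribosomal protein lists fell below a 10th of the family median, separated from the others by a gap. The highest of them, rpl-12, had 77.4 FPKM, while the lowest of the other 79 genes, rpl-11.2, had 330.6 FPKM. For rpl-12 the value came from 8 counts on a 153 nt transcript, and its longer transcript of 498 nt had 15 counts and 44.6 FPKM. Next were rpl-24.2 at 48.4 FPKM from 16 counts, rpl-30 at 42.5 FPKM from 10 counts and rpl-25.1 at 36.7 FPKM from 11 counts. Both rpl-24.2 and rpl-25.1 have a denser counterpart of like name in these lists, rpl-24.1 at 2664.5 FPKM and rpl-25.2 at 1581 FPKM. The lowest values belonged to rpl-22 with 11.3 FPKM from 3 counts and rpl-3 with 6.14 FPKM (1.99 to 14.3) from 5 counts over 1206 nt, and rpl-42 was listed at 0. As rpl-3 and rpl-12 encode core proteins of the large subunit, which every cell uses, values at or near 0 in this table do not show that a gene was untranslated. For this reason genes without counts are given below only as listed at 0. The reads behind these genes were not examined.

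**Figure D3:**
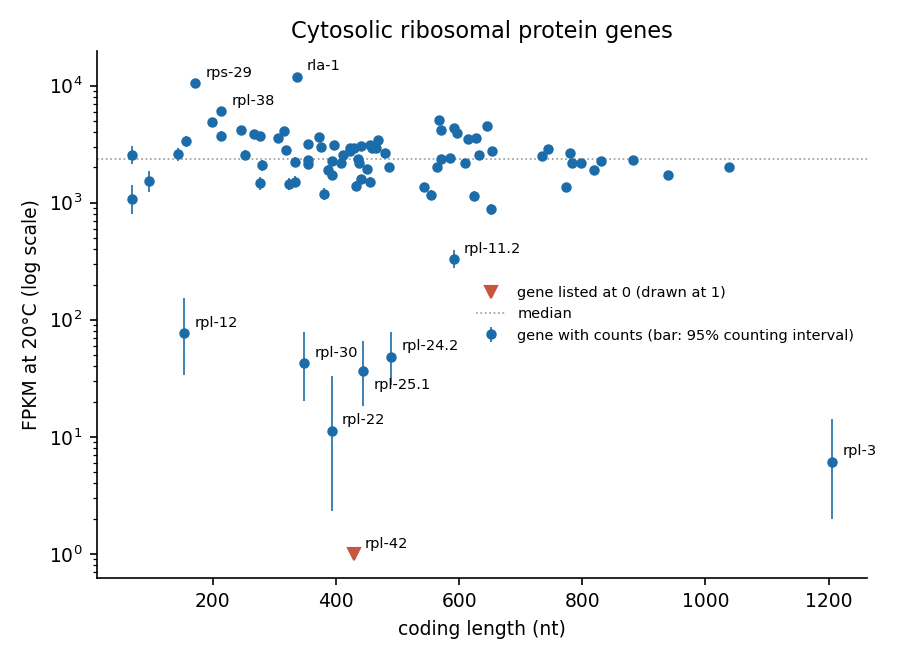
FPKM at 20°C (log axis) against coding length (nt) for the 86 cytosolic ribosomal protein genes, with 95% counting intervals as bars, the family median as a dotted line and rpl-42, listed at 0, as a triangle drawn at 1. Most genes sit in a band around 2363 FPKM, with 7 genes at or below 77.4 FPKM.

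Ribosomal protein genes read from shorter coding sequences were somewhat denser. Without the 7 low genes, the 15 genes read from under 300 nt had a median of 3340.1 FPKM and ranged from 1073 to 10561 FPKM. The 64 genes read from 300 nt or more had a median of 2363 FPKM and ranged from 330.6 to 11935 FPKM. The rank correlation of coding length and FPKM was -0.21 over these 79 genes and -0.66 over the 3642 genes with at least 10 counts. These are descriptions across genes of 1 column, where FPKM is itself a count divided by length, and genes are not independent replicates. Reading each gene from its densest transcript can also favour short isoforms, such as the 246 nt read for rpl-32. How much this choice adds to the link was not tested.

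The factors that work with the ribosome were far less even. Among the elongation factors, eef-1A.1 stood at 9295 FPKM, followed by the exchange factor subunits eef-1B.1 (1907 FPKM) and eef-1G (1591 FPKM) and by eef-2 (1599 FPKM). The 9 elongation factor genes held 2.52% of the summed FPKM. The 40 genes of the initiation factor list had a median of 84.1 FPKM and held 1.04%, much of it from the ribosome-bound scaffold rack-1, which was in that list at 3165 FPKM. The next members were inf-1, the eIF4A helicase, at 503.2 FPKM, the poly(A)-binding protein pab-1 at 491.9 FPKM and the cap-binding protein ife-3 at 376.5 FPKM. The aminoacyl-tRNA synthetases, which charge tRNAs, had a median of 56.7 FPKM over 32 genes, with kars-1 highest at 158.4 FPKM.

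Vitellogenins, the yolk proteins made in the intestine and taken up by oocytes, held the largest count share of any list when every gene was counted, and a smaller one than the ribosomal proteins when near-identical copies were counted once. The 6 genes, with coding sequences of 4812 to 4953 nt, together held 81259 counts, or 19.1% of the total (Wilson interval 18.98 to 19.22), but 3.46% of the summed FPKM. Their FPKM values were 5483 for vit-4, 5456 for vit-3, 5368 for vit-5, 3371 for vit-6, 3243 for vit-2 and 1941 for vit-1. All 6 were among the 100 densest genes. Since vit-3, vit-4 and vit-5 have the same coding length and near-equal counts, and the rule for footprints that match several genes is not given, their separate levels are uncertain. A footprint matching several of them may also have been counted more than once, which would raise the family share. Counting these 3 genes once gave the family 11.8% of the counts and 1.98% of the FPKM.

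A few of the proteins that carry lipid outside the yolk particles were also dense, but their list had a median of 16.65 FPKM. Of its genes, 8 were listed at 0. The fatty acid and retinol binding protein far-2 led this list of 26 genes at 4352 FPKM, followed by the lipid-binding protein lbp-9 at 3254 FPKM, the far-2 paralog far-1 at 997.6 FPKM and lbp-6 at 489.8 FPKM. Enzymes that make phosphatidylcholine and methyl donors were led by ahcy-1, S-adenosylhomocysteine hydrolase, at 1661 FPKM, with the serine hydroxymethyltransferase mel-32 at 322.5 FPKM and the phosphoethanolamine methyltransferase pmt-2 at 244.5 FPKM. The S-adenosylmethionine synthetase sams-1 had 105.0 FPKM, and sams-3, sams-4 and sams-5 were listed at 0. Desaturases and elongases were moderate, with elo-6 at 193.8 FPKM and fat-6 at 138.4 FPKM. The lipid droplet protein plin-1 stood at 246.7 FPKM and the triglyceride lipase atgl-1 at 7.22 FPKM. Of the 27 lipase and lipid droplet genes 17 were listed at 0, and 37.0% had counts, against 52.8% of all genes.

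Genes for the oocyte and its eggshell were translated broadly. All 18 eggshell and vitelline layer genes had counts, against 52.8% of all genes. At least 10 counts were reached by 17 of them, and by 3642 of the 19985 genes of the table. The highest were perm-2 (2237 FPKM) and perm-4 (1189 FPKM), which are components of the vitelline layer, and the chondroitin proteoglycans cpg-2 (1162 FPKM) and cpg-1 (1095 FPKM). All 35 oocyte RNA-binding proteins and maternal regulators had counts too. They were led by the cold shock domain proteins cey-2 (2217 FPKM) and cey-3 (966.4 FPKM), the LSM14-type repressor car-1 (1399 FPKM) and the DDX6-type helicase cgh-1 (1069 FPKM), which store maternal mRNAs. Proteins of P granules and small RNA pathways were lower, with a median of 15.0 FPKM over 28 genes, glh-1 at 173.7 FPKM and wago-1 at 131.4 FPKM. DNA replication and cell cycle genes included the sliding clamp pcn-1 at 575.7 FPKM and cyclin cyb-3 at 225.6 FPKM, and 36 of 38 had counts.

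Core histones were numerous and individually moderate. The 74 genes held 4.03% of the summed FPKM and 1.68% of the counts, with a median of 237.8 FPKM. Only 1 of them was listed at 0, and 98.6% had counts, against 52.8% of all genes. The highest were his-64 at 1452 FPKM, his-46 and his-56 at 1390.1 FPKM each, and his-58 at 1189.8 FPKM. Many histone genes are near-identical copies. The pair his-46 and his-56 had the same length and counts in all 5 condition columns, as did 88 genes in 40 such groups over the whole table, so those values cannot be assigned to single copies. Keeping each group once brought the histone share to 2.90%. The 8 genes of the linker histone list, drawn up by symbol, had a median of 14.4 FPKM, and hil-4 was highest at 141.8 FPKM. The gene his-24 (627 nt, 63.7 FPKM) was counted by its symbol with the core histones, so these 2 lists may not part the types fully.

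Cuticle collagens of the col family ranged from genes listed at 0 to some of the densest of the table. The family held 3.61% of the summed FPKM and 3.69% of the counts. Of its 156 genes 103 (66.0%, against 52.8% of all genes) had counts, 50 had at least 10, and the median was 1.72 FPKM. The highest were col-181 at 2293 FPKM, col-119 at 2021 FPKM, col-122 at 1821 FPKM and col-20 at 1820 FPKM. Collagens known by their mutant body shapes were low, with sqt-3 highest at 31.4 FPKM, dpy-17 at 18.2 FPKM and 7 of 20 listed at 0.

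Chaperones of unstressed cells were abundant, and all but 1 gene of the list named stress-inducible had under 10 counts. The cytosolic list held 2.37% of the summed FPKM, led by cyn-7 (4776 FPKM), sip-1 (4351 FPKM), hsp-1 (2551 FPKM) and the cyclophilin cyn-3 (1846 FPKM). The list of stress-inducible small heat shock proteins and HSP70 held 28 counts over 16 genes, of which 6 were listed at 0. The highest members of the stress-inducible list were hsp-12.2 with 11 counts (48.9 FPKM) and 2 identical-count copies, hsp-16.11 and hsp-16.1, with 3 counts each. In the endoplasmic reticulum the protein disulfide isomerases pdi-2 (697.2 FPKM) and pdi-1 (538.1 FPKM) and the calcium-binding chaperone crt-1 (599.3 FPKM) led, and of the BiP genes hsp-3 had 349.6 FPKM and hsp-4 had 185.2 FPKM. Translocon parts were also dense, with trap-1 at 1054 FPKM and sec-61.B at 962.8 FPKM. Mitochondrial chaperones were led by hsp-60 at 461.2 FPKM and hsp-6 at 310.5 FPKM.

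Among the genes that symbols placed in the mitochondrial energy lists, exchangers of the membranes were highest. Genes without a matching symbol, such as Y82E9BR.3 at 7119 FPKM, were in no list, so these lists may lack subunits. The ADP/ATP translocase ant-1.1 stood at 2944 FPKM and the porin vdac-1 at 1779 FPKM. Below ant-1.1 and vdac-1 in these lists, genes of ATP synthase and of cytochrome c oxidase were interleaved. They were atp-1 at 1379 FPKM, cox-6B at 1363 FPKM, cox-7C at 1079.7 FPKM, cox-4 at 1023 FPKM and atp-2 at 973.1 FPKM. The intervals of atp-1 and cox-6B overlapped. Genes of the complex I list were lower, with a median of 109.9 FPKM over 45 genes. Mitochondrial ribosomal proteins were lower again, with a median of 23.1 FPKM over 73 genes, and mrpl-12 was highest at 73.7 FPKM. All 73 had counts, against 52.8% of all genes. The 12 genes of the mitochondrial genome had 7 counts in all. The list of the citric acid cycle and pyruvate dehydrogenase, drawn up by gene symbol and not by compartment, was led by mdh-1 (733.5 FPKM) and mdh-2 (676.7 FPKM). In glycolysis the aldolase aldo-2 had 935.8 FPKM and the enolase enol-1 had 936.9 FPKM.

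Protein degradation genes were moderate, with few extremes at the top. The 14 genes of the 20S proteasome core had a median of 364.6 FPKM and the 19 genes of its 19S regulator a median of 169.4 FPKM. Polyubiquitin ubq-1 stood at 758.1 FPKM, the ubiquitin-conjugating enzyme let-70 at 680.1 FPKM and the SUMO gene smo-1 at 552.4 FPKM. Lysosomal proteases held 0.888% of the summed FPKM, with the aspartyl proteases asp-1 (935.9 FPKM) and asp-6 (755.3 FPKM) and the cathepsins cpl-1 (768.7 FPKM) and cpr-1 (725.2 FPKM).

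For complexes of fixed composition, the spread among the listed genes differed between complexes. The 8 subunits of the chaperonin CCT, which folds actin and tubulin, ranged from 164.5 FPKM for cct-6 to 255.4 FPKM for cct-7, a 1.55-fold range. The 20S proteasome ranged 2.60-fold, from pas-1 at 173.8 FPKM to pbs-7 at 451.8 FPKM, with 13 of 14 genes within 2-fold of the median. In the 19S regulator, where rpn-9 was highest at 291.2 FPKM, 18 of 19 genes lay within 2-fold and the exception was rpn-6.2 with 1 count, whose paralog rpn-6.1 had 119.5 FPKM. All 7 Sm proteins of the spliceosome were within 2-fold of 356.6 FPKM. The corresponding numbers were 64 of 73 for the mitochondrial ribosome, 69 of 86 for the cytosolic ribosome, 31 of 45 for complex I and 8 of 13 for ATP synthase.

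The V-ATPase, a proton pump with several copies of some subunits per complex, had 10 of 21 genes within 2-fold of its median of 113.1 FPKM. Its highest gene was vha-2, a ring subunit, at 764.5 FPKM. Its 5 lowest genes were the 4 alternative a subunits and vha-18, with vha-5 at 19.8 FPKM, vha-6 at 17.1 FPKM, unc-32 at 12.6 FPKM, vha-18 at 12.01 FPKM and vha-7 at 6.63 FPKM, and the intervals of the first 4 overlapped. The lowest gene of the ATP synthase list was atp-6, which is encoded in the mitochondrial genome and had 1 count. Over the 3642 genes with at least 10 counts, 41.16% lay within 2-fold of their common median.

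**Figure D4:**
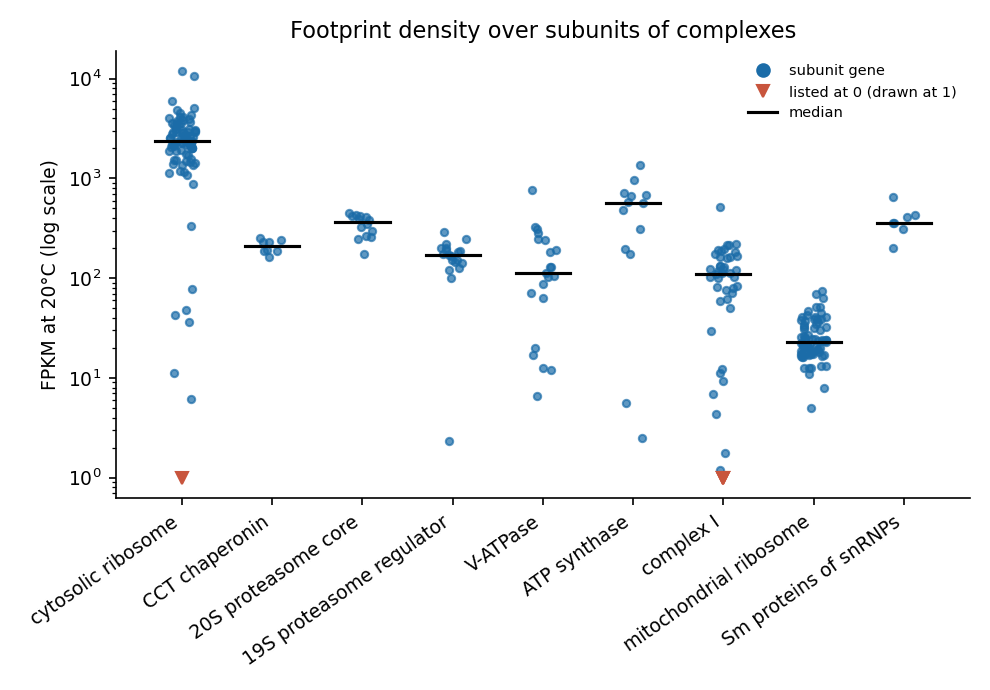
FPKM at 20°C (log axis) of each listed gene (blue points, labelled subunit gene) in 9 complexes. The median of each complex is a black line, and genes listed at 0 are red triangles drawn at 1. CCT, the 20S core and the Sm proteins form tight clusters, while the V-ATPase, ATP synthase and complex I lists have tails of low genes. For complex I the tail includes assembly factor genes and genes of the mitochondrial genome.

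In several paralog sets 1 gene held most of the footprints. Of the eEF1A genes, both with a coding length of 1392 nt, eef-1A.1 exceeded eef-1A.2 by 7.05-fold (95% interval 6.64 to 7.49). The ratio intervals here and below cover counting error only. Footprints that match both genes of a set could shift such ratios, and how they were assigned is not given. Of the eIF5A genes, iff-1 exceeded iff-2 by 12.03-fold (8.59 to 17.3). Similarly, rpl-11.1 exceeded rpl-11.2 by 13.2-fold (11.02 to 15.8) and rpl-25.2 exceeded rpl-25.1 by 43.1-fold (23.9 to 86.95), where rpl-25.1 is 1 of the 7 low ribosomal protein genes whose reads were not examined. For the ADP/ATP translocases ant-1.1 held 99.9% of the set, ant-1.3 had 1 count, and ant-1.2 and ant-1.4 were listed at 0. The 14-3-3 proteins par-5 and ftt-2 differed by 3.17-fold (2.82 to 3.58), and the cold shock domain proteins were ordered cey-2, cey-3, cey-4 (202.4 FPKM) and cey-1 (89.7 FPKM).

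Other sets were shared. The tubulins tbb-2 (1209 FPKM) and tbb-1 (607.5 FPKM) differed by 1.99-fold (1.80 to 2.21), and tba-2 (960.5 FPKM) and tba-1 (628.3 FPKM) by 1.53-fold (1.37 to 1.70). The actins act-1, act-2 and act-3 were between 1444 and 1455 FPKM, with overlapping intervals, and act-4 was at 843.1 FPKM and the intestinal act-5 at 240.2 FPKM. Glyceraldehyde-3-phosphate dehydrogenases fell into pairs, with gpd-1 (1143 FPKM) and gpd-4 (1114 FPKM) above gpd-3 (454.5 FPKM) and gpd-2 (444.4 FPKM). As these actins and the gpd pairs are near-identical copies, the split within them is uncertain.

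Markers of adult tissues were checked against the label of whole 1-day-old adults. All 10 intestinal markers and all 10 oocyte and germline markers had counts, with medians of 367.1 and 177.7 FPKM. Over all genes 52.8% had a count. The yolk receptor rme-2 stood at 160.4 FPKM, the oocyte maturation factors oma-1 and oma-2 at 241.9 and 181.6 FPKM, and the stem cell Notch receptor glp-1 at 2.67 FPKM. The intestinal transcription factor elt-2 and the intestinal marker ges-1 were near the floor, with 2 and 5 counts. All 8 body wall muscle markers had counts, from unc-22 (2.23 FPKM) to tropomyosin lev-11 (760.5 FPKM). For the hypodermis, the adult collagens col-140 (1552 FPKM) and col-19 (452.6 FPKM) were high, col-120 and dpy-7 had 1 and 2 counts, and rol-6 and bli-1 were listed at 0.

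Other cell types were at low levels. The 10 neuronal markers summed to 48 counts, of which the synaptobrevin snb-1 had 18 (80.7 FPKM). The 6 pharynx muscle markers summed to 69 counts, those of the excretory canal cell to 69, the spermatheca and gonad sheath to 6 and the coelomocytes to 5. Of 9 sperm markers 7 had counts, 27 in all, and the 31 major sperm protein genes together had 233 counts, with msp-55 highest at 77.1 FPKM. The 5 male markers lov-1, pkd-2, her-1, cil-7 and klp-6 were listed at 0, where the floors were between 0.451 and 8.41 FPKM. Of the 8 embryonic genes, pie-1 (46.99 FPKM) and skn-1 (22.03 FPKM), which are also supplied maternally, had 42 of the 45 counts. The larval and dauer list had 69 counts, of which 40 fell on the collagen col-39 (60.9 FPKM).

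**Figure D5:**
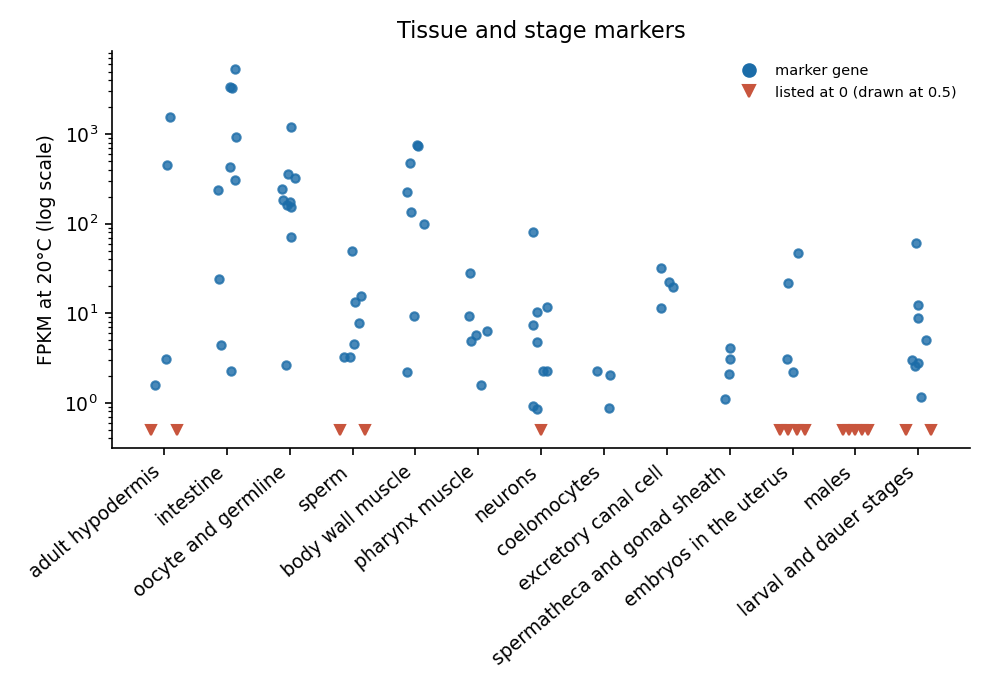
FPKM at 20°C (log axis) of each marker gene (blue points) by tissue or stage, with genes listed at 0 as red triangles drawn at 0.5. Intestine, germline and body wall muscle markers reach 5368, 1189 and 760.5 FPKM, neuronal markers stay at or below 80.7 FPKM, and all 5 male markers are at 0.

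Muscle and cytoskeleton genes ranged widely. The thin filament and light chain genes lev-11, mlc-3 (742.8 FPKM), cpn-3 (741.9 FPKM) and pat-10 (472.1 FPKM) led the sarcomere list, and the heavy chain unc-54 had 135.7 FPKM from 540 counts. Profilin pfn-1 (934.9 FPKM) and the dynein light chain dlc-1 (904.6 FPKM) led the actin-binding and motor proteins. Basement membrane genes were led by ost-1, or SPARC, at 130.3 FPKM, with the type IV collagens let-2 and emb-9 at 52.2 and 31.4 FPKM. The nuclear lamin lmn-1 had 124.4 FPKM.

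Most secreted and defence families had low medians, with moderate values at their top members. The median was 0 FPKM for C-type lectins, 5.48 FPKM for the lysozyme, saposin and antimicrobial list and 10.1 FPKM for transthyretin-related genes. It was 3.70 FPKM for neuropeptide genes, 56.4 FPKM for the nematode-specific small peptide genes and 87.8 FPKM for galectins. Of 239 C-type lectin genes 77 (32.2%, against 52.8% of all genes) had counts and 16 had at least 10. The highest were clec-87 at 339.5 FPKM and clec-63 at 203.6 FPKM. The lysozyme, saposin and antimicrobial list held 0.658% of the summed FPKM, led by the saposin-like spp-14 (787.6 FPKM) and spp-5 (564.6 FPKM). The transthyretin-related genes ttr-15 and ttr-16 had 666.7 and 467.5 FPKM and the galectin lec-1 had 518.1 FPKM. Nematode-specific small peptide genes held 0.716%, with nspc-6 and nspc-2 at 362.8 FPKM each, 1 of the pairs that share all counts. Among neuropeptide genes nlp-77 stood apart at 655.7 FPKM, and the next, nlp-40, a peptide secreted by the intestine, had 147.2 FPKM. Stress and detoxification genes held 0.707% of the summed FPKM, and the highest were prdx-2 (996.9 FPKM), sod-1 (521.4 FPKM), gst-1 (347.1 FPKM), gst-7 (312.3 FPKM) and the metallothionein mtl-2 (308.4 FPKM).

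Receptor and regulator families had low counts, and the chemoreceptors were almost empty at this depth. Against 52.8% of all genes with a count, 1.222% of the 1309 chemoreceptor genes had one, which is 16 genes with 24 counts in all, with str-176 highest at 6.38 FPKM. Of 274 nuclear hormone receptors 97 (35.4%) had counts and 3 had at least 10, with nhr-49, a regulator of fat metabolism, highest at 18.6 FPKM. Of 444 genes with F-box, BTB or MATH domains 181 (40.8%) had counts. Among 98 homeobox and bHLH factors 43 (43.9%) had counts, and hlh-30, the TFEB homolog, was highest at 17.9 FPKM. At 4.44 FPKM per 3 counts and 1000 nt, levels below a few FPKM could not be told from 0.

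Footprints were unevenly spread over chromosomes. Chromosome III carried 13.2% of the genes and 22.2% of the summed FPKM, and chromosome V carried 24.99% of the genes and 15.0% of the FPKM, with counts for 37.4% of its genes against 68.1% on chromosome III. The X chromosome carried 13.7% of the genes, 9.55% of the FPKM and 22.6% of the counts. This count share rested on 5 vitellogenin genes of the X, and without the vitellogenins it was 7.55% (Wilson interval 7.47 to 7.64).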

How the data were processed

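The authors prepared footprint libraries from 2 biological replicates at 20°C, trimmed reads with fastp 0.23.4, removed contaminants and mapped to WBcel235 with STAR 2.7.11b. The submitters' notes also name DESeq2 1.42.1. The values deposited by the authors were FPKM, 1 pooled column per condition (whether summed or averaged was not given in the sources used here). How footprints matching several genes were assigned is likewise not given. Genes that shared all counts, such as his-46 and his-56, each carried 293 whole counts. A footprint may thus have been counted once for each copy, which would raise the shares of copied families. A column that matched no sample (1) was not used, and the RNA-seq was not analysed here.

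FPKM times coding length (Ensembl release 115, stop codon included) divided by the column's step gave whole numbers for 100% of transcripts above 0 (tolerance 0.01). These recovered counts summed to 675550 over 31865 transcripts, where a footprint is counted for every isoform it falls in, and the FPKM was scaled to that sum. The values used per gene came from 1 transcript, so a short isoform could be the one read. Such a gene can lose counts, as for rpl-12 with 8 counts on the transcript read and 15 on its longer one. This lowers the count total and raises the count shares of other genes, to an extent that was not measured. Exact Poisson intervals (95%) were given for gene FPKM, normal counting intervals for shares of summed FPKM, Wilson intervals for count shares and Clopper-Pearson intervals for ratios. If the pooled value is a mean, the intervals are if anything too wide. No test between groups was made.

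Named genes were the 30 highest, the 4 highest of each list, all markers and the ends of complexes. Other genes named, and the paralog sets, were chosen after their values were seen. Members and lists were chosen with earlier results of these data known, and several name patterns were corrected, and RefSeq symbols (19956 of 19985 genes matched) added, after the files were read. The scripts (Python 3.11.15, pandas 2.3.3, SciPy 1.17.1) were tested on simulated data.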

Additional observations from a re-analysis of the deposited data

How the results depend on the processing

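The number of genes that held 50% of the footprints stayed between 121 and 137 under the 8 alternatives run, against 134. The share of the 50 highest genes, 29.3% of the summed FPKM, was 29.5% with the longest coding sequence of each gene, 36.7% by counts, 29.7% with genes sharing all counts kept once, and 30.5% without coding sequences under 300 nt. The share of cytosolic ribosomal proteins, 31.04%, was 15.5% by counts, 31.5% with shared genes once and 27.2% without the short coding sequences. Of the alternatives chosen after seeing the data, counting vit-3, vit-4 and vit-5 once gave 28.9% and 31.5% for these shares, and matching lists by the table's symbols alone gave 30.2% for the ribosomal proteins. The changes by counts, without short genes or with genes kept once follow from how those shares are built. For 5 further families 17 of 40 values moved beyond counting error, and the histone share of 4.03% was lowest by counts, at 1.68%. No paired analysis was possible because both replicates were deposited as 1 pooled column, which also left no replicate to leave out. With 2731 genes at a single count, depth limits what can be said of low genes.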

Other observations

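Genes in no list held 27.7% of the summed FPKM and 28.1% of the counts. The highest of them after Y82E9BR.3 and ndk-1 were the RNA-binding protein gene rbm-3.2 at 2289 FPKM, dct-16 at 1727 FPKM, C17F4.7 at 1583 FPKM and ule-5 at 1578 FPKM. The subunits of the nascent polypeptide-associated complex, which binds chains as they leave the ribosome, followed at 1529 FPKM for icd-1 and 1304 FPKM for icd-2, and the FK506-binding protein gene fkb-2 had 1489 FPKM. These genes were named after their values were seen. Among ranks 1 to 50 genes in no list made up 4.0%, and below rank 3000 they made up 86.2%.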
